A study of Mus musculus with 16 samples.

Results

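Dystroglycan and the proteins that modify and surround it were examined through 8 genes out of the 17655 gene symbols listed in every deposited table. The genes are Dag1, B4gat1, Pomt1, Pomt2, Pomgnt1, Dmd, Utrn and Sgcb, each taken by its symbol from the tables of all 16 samples. They were chosen by measured values of these samples, the read counts of Dag1 and B4gat1, which are both far lower in cells with the empty vector, so the difference of these genes between the groups is given below as a description and not as a test. RNA sequencing was done on mouse preSC, cells at a precancerous stage of small cell lung cancer, which per the labels are Chga-positive neuroendocrine cells of the lung that are Rb1 null, Trp53 null and Rbl2 heterozygous null. In one group the cells carried an empty lentivirus ("empty"), and in the other a lentivirus with Wnt5a ("Wnt5a"), with 8 deposited samples each. All cells of both groups share the genotype and received doxycycline at 1 µg/mL for 48 hours, and 500 ng of their total RNA went through oligo-dT selection into libraries, so by the labels the groups differ in the lentiviral insert. The labels do not say whether the samples of a group came from separate cultures or whether a group is 1 clone, so p-values here measure only the spread between these libraries, which may be technical.

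Dystroglycan is made from the gene Dag1 as a single precursor that is cut into alpha-dystroglycan, which lies outside the cell, and beta-dystroglycan, which spans the membrane. Alpha-dystroglycan binds laminin and other matrix proteins through a long sugar chain, matriglycan, built on an O-linked mannose: Pomt1 and Pomt2 together attach that mannose, and B4gat1 adds the glucuronic acid that primes the chain before it is lengthened. Pomgnt1 adds N-acetylglucosamine to other O-mannoses of the protein, whereas the mannose that carries matriglycan is extended by its relative Pomgnt2. Inside the cell beta-dystroglycan binds dystrophin (Dmd) or its relative utrophin (Utrn), and the sarcoglycans, Sgcb among them, sit beside it in the membrane. Loss of the glycan underlies a group of muscular dystrophies with brain involvement, and in epithelia dystroglycan serves as a receptor for basement membrane.

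The DNA before the starts of Dag1 and B4gat1 is shown because these are the genes whose read counts separate the groups. Each window holds the 250 bases before a RefSeq transcript start on GRCm38.p6 (for Dag1 the outermost of 2 starts), read 5′ to 3′ on the gene's strand. Capitals mark the GC box GGGCGG and the box CCAAT, each searched on both strands together with TATAAA.
Dag1, chr9:108263959-108264208, minus strand: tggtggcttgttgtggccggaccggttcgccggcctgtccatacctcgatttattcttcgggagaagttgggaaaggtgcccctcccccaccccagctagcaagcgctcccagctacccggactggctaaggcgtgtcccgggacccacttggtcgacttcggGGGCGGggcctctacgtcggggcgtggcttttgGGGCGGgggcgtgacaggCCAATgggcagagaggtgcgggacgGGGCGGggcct
B4gat1, chr19:5038576-5038825, plus strand: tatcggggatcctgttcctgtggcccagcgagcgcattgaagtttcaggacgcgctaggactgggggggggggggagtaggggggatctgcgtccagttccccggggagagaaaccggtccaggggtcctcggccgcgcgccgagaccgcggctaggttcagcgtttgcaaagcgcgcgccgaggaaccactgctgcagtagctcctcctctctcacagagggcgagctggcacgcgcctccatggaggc
Both windows are rich in CpG. The Dag1 window has 21 CpG and is 67.6% G or C, and the B4gat1 window has 23 CpG and is 67.2% G or C, against a median of 6 CpG and 52.4% over 32851 promoters of the same length. Fewer CpG than Dag1 were found in 83.7% of those promoters, and fewer than B4gat1 in 86.7%. Among the other genes examined, Pomgnt1 (41), Pomt1 (27) and Pomt2 (22) had more CpG than Dag1 in windows of the same length. Sgcb (14), Dmd (2) and Utrn (2) had fewer. The number of CpG thus did not set Dag1 and B4gat1 apart from the other genes. Dag1 has 3 GGGCGG and 1 CCAAT, motifs that 32.7% and 33.8% of all promoters hold at least once, while B4gat1 has neither. TATAAA, held by 12.4% of promoters, is in neither window. These matches describe letters in a window and not binding.

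Empty samples held 7526676 to 8181010 recovered reads, Wnt5a samples 8743431 to 8859862. Samples 1 to 4 of a group differed from each other by no more than about sampling noise, as did samples 5 to 8, so each set of 4 was averaged and counted as 1 sample, called library A and library B, with n = 2 per group. Wnt5a itself, the gene carried by the lentivirus, had a normalised read count (reads divided by 1 scaling factor per sample) of 122 ± 31.4 in empty cells against 1279 ± 325 in Wnt5a cells (SD, n = 2). Chga, the marker named in the labels, was at 3716 to 4370 in empty cells against 3007 to 3800 in Wnt5a cells (adjusted p = 0.428 in limma, 0.013 with library A or B as a replicate block). Reads were also assigned to the genes labelled null, Rb1 at 3217 to 3229 against 3169 to 3217 and Trp53 at 64.8 to 70.04 against 84.5 to 97.3. For Trp53 the adjusted p was 0.187 in limma and 0.032 with the block. Counts per gene do not show which exons the reads cover. Over all 12357 genes with a mean value of at least 10, 2.06% passed a limma adjusted p of 0.05 in either direction, 1.38% higher and 0.672% lower in Wnt5a. The samples are bulk RNA, in which fewer cells that express a gene and less RNA per cell cannot be told apart.

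Dag1 (chromosome 9), the gene of dystroglycan itself, was present in both groups but far lower in empty cells. Its normalised read count was 54.3 and 45.8 in empty libraries A and B, and 354 and 327 in Wnt5a libraries A and B. Over the 8 empty samples the lowest, median and highest values were 41.6, 50.3 and 64.0. In the 8 Wnt5a samples they were 314.1, 347.8 and 367.8. Every Wnt5a sample thus lay above every empty sample, with a wide gap between the groups and little spread inside either. The group means were 50.1 ± 6.0 and 340.5 ± 19.7 (SD, n = 2), so the empty level was 14.7% of the Wnt5a level. On the log2(value + 1) scale the difference was 2.74 (SE 0.13). Counted as reads, 377 in the empty and 2902 in the Wnt5a libraries gave a ratio of 6.87 per sequenced read, with a 95% interval of 6.17 to 7.66 that covers counting error only. Among all genes tested, Dag1 ranked at 54 by the size of its rise.

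B4gat1 (chromosome 19), the glucuronyltransferase that primes matriglycan, was almost without reads in empty cells. Empty library A held 1 read and library B 0 reads, against 167 and 168 reads in Wnt5a libraries A and B. In normalised read counts these were 0.274 and 0 in empty cells against 39.2 and 39.4 in Wnt5a cells. In empty cells 7 of the 8 samples had 0 reads and the remaining sample stood at 1.10. The Wnt5a samples had a lowest value of 29.2, a median of 39.6 and a highest of 48.9. The groups did not overlap, and all 8 Wnt5a samples had many reads where the empty samples had at most 1. With 3 reads as the floor, library B of the empty cells allows a normalised read count of up to 0.764. The ratio of the 335 Wnt5a reads to the 1 empty read, per sequenced read, was 299, with a 95% counting interval of 53.3 to 11838. The fitted log2 difference of 5.16 (SE 0.30) depends on the pseudocount of 1 and is not a bound. It ranked at 12 among all genes tested. The median log2 difference of all tested genes on chromosome 19 was 0.36, a small part of the B4gat1 difference. In the GENCODE M21 annotation a read-through transcript spans B4gat1 and its neighbour Brms1. Whether the authors' annotation held that transcript is not given in the sources used here, so reads that fit both may have been left uncounted in every sample.

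By the same limma threshold 2 of the 8 genes were called, Dag1 and B4gat1, beside 2.06% of all genes tested, and nothing is read from that count because the choice of genes used it. The library ranges of the groups did not overlap for 3 of the 8 (Dag1, B4gat1 and Sgcb), beside 44.2% of all genes tested. Sample ranges did not overlap for Dag1 and B4gat1, the genes chosen for their difference. The share of all genes with this property was not counted, so nothing is read from it.

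**Figure D1:**
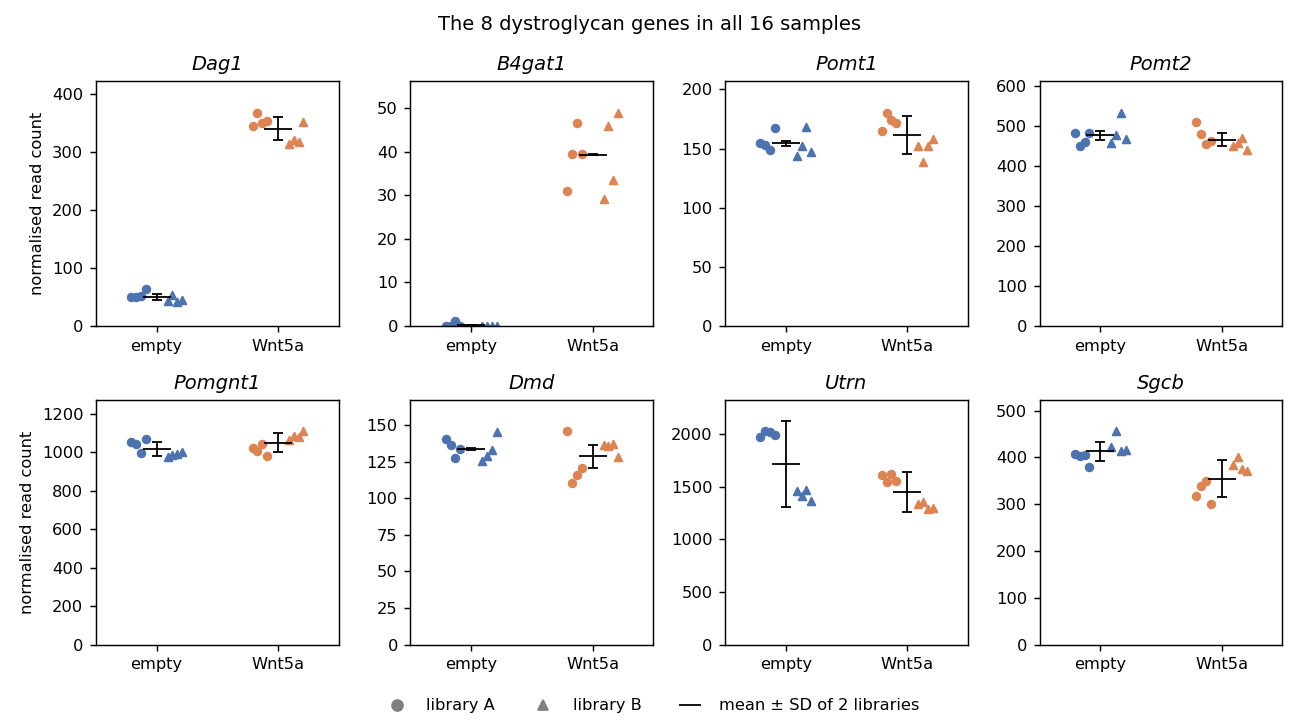
Normalised read counts of the 8 genes (vertical axes, linear from 0) in the empty and Wnt5a samples, with circles for library A, triangles for library B and black bars for the mean ± SD of 2 libraries. Dag1 lies between 41.6 and 64.0 in all empty samples and above 314 in all Wnt5a samples, B4gat1 is at or near 0 in all empty samples, and the sample ranges of the other 6 genes overlap.

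The other enzymes among the 8 genes showed small group differences. Pomt1 (chromosome 2), which with Pomt2 forms the O-mannosyltransferase, was at 156 and 153 in empty cells against 173 and 150 in Wnt5a cells, a log2 difference of 0.06 (SE 0.11). Its empty samples ran from 144 through a median of 153 to 168, and its Wnt5a samples from 138 through 162 to 180. The Wnt5a range enclosed the empty range. Pomt2 (chromosome 12), the other subunit, was at 468 and 483 against 476 and 453, a log2 difference of -0.03 (SE 0.08). Its samples lay at 448, 473 and 532 (lowest, median, highest) in empty cells and at 439, 459 and 508 in Wnt5a cells, so the groups shared most of their range. Pomgnt1 (chromosome 4), the N-acetylglucosaminyltransferase of the other O-mannose glycans, was at 1040 and 989 against 1013 and 1084, a log2 difference of 0.05 (SE 0.08). Its samples lay at 974, 1000 and 1071 in empty cells and at 982, 1052 and 1107 in Wnt5a cells. For none of these 3 enzymes did the group difference exceed its standard error. Each of the 6 genes other than Dag1 and B4gat1 rested on at least 487 reads in every library.

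Dystrophin and utrophin, the alternative cytoplasmic anchors of beta-dystroglycan, were both expressed. Dmd (chromosome X) was at 134 and 133 in empty cells against 123 and 134 in Wnt5a cells, a log2 difference of -0.06 (SE 0.11), with samples at 126, 133 and 145 in empty cells and at 110, 132 and 146 in Wnt5a cells. The Wnt5a range of Dmd enclosed its empty range, with 3 Wnt5a samples below all empty samples and 1 above. Utrn (chromosome 10) was at 2007 and 1428 in empty cells against 1586 and 1321 in Wnt5a cells. Its samples lay at 1365, 1726 and 2028 in empty cells and at 1287, 1455 and 1619 in Wnt5a cells. The larger split of Utrn was between libraries, not groups: library A exceeded library B by 0.49 on the log2 scale in empty cells and by 0.26 in Wnt5a cells, while the group difference was -0.23 (SE 0.17). Of all genes tested, 457 (3.70%) exceeded B in A by at least that smaller margin in both groups, and the pathway genes Tmtc1 and Ank3 were among them. Without empty library A the group difference of Utrn was 0.02, and without empty library B it was -0.47, and of the 4 fits that each omit one library the latter alone called it.

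Sgcb (chromosome 5), the beta-sarcoglycan, was at 398 and 427 in empty cells against 326 and 382 in Wnt5a cells, a log2 difference of -0.22 (SE 0.10). Its samples lay at 380, 410 and 455 in empty cells and at 299, 359 and 401 in Wnt5a cells. The library values of the groups did not overlap, but their samples did. With library A or B as a replicate block, limma called 4 of the 8 genes (Dag1 and B4gat1 higher, Utrn and Sgcb lower in Wnt5a). It called 17.0% of all genes tested (8.68% higher and 8.27% lower). Dag1 and B4gat1 were chosen for their difference, so nothing is read from the count of 4.

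**Figure D2:**
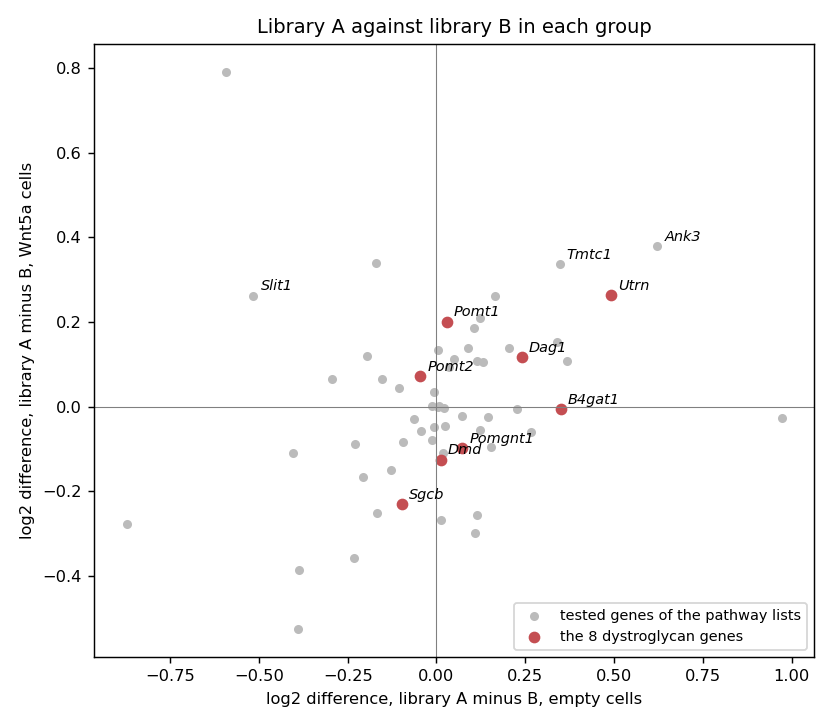
Log2 difference of library A minus library B in empty cells (horizontal axis) and in Wnt5a cells (vertical axis), with the 8 genes in red and tested genes of the pathway lists in grey. Utrn lies at 0.49 and 0.26, near Ank3 and Tmtc1, while Dag1 and B4gat1 differ between libraries by far less than between groups.

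Levels can be compared between genes only per length, here as the normalised read count per kilobase of the longest GENCODE M21 transcript. In Wnt5a cells the order was Pomgnt1 at 304 ± 14.6, Utrn at 117 ± 15.1, Sgcb at 93.5 ± 10.5, Pomt2 at 91.8 ± 3.23, Dag1 at 60.1 ± 3.47, Pomt1 at 48.4 ± 4.78, B4gat1 at 17.7 ± 0.057 and Dmd at 8.63 ± 0.53 (SD, n = 2). Sgcb and Pomt2 are neighbours in that order that did not differ beyond their spread. In empty cells the order was Pomgnt1 at 294 ± 10.5, Utrn at 139 ± 33.1, Sgcb at 109 ± 5.24, Pomt2 at 93.9 ± 2.13, Pomt1 at 46.3 ± 0.65, Dmd at 8.97 ± 0.053 and Dag1 at 8.84 ± 1.06, with B4gat1 last on its 1 read. There Utrn and Sgcb, and also Dmd and Dag1, did not differ beyond their spread. Dag1 and Dmd were thus the lowest of the genes with more than 1 read in empty cells, while Dag1 stood above Pomt1 in Wnt5a cells. Dmd is divided by its longest transcript of 14910 bases, so its level per kilobase is understated where shorter transcripts are made.

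The rest of the pathway was followed with 6 lists written from general knowledge, which hold 70 genes, 66 of them listed and 56 expressed enough to be tested. In limma 0 of the 56 were called, beside 2.06% of all genes tested, and 9 had an unadjusted p under 0.05, beside 16.1% of all. EdgeR called 0, beside 1.99% of all, and DESeq2 called 3, beside 4.35%. Their median log2 difference was -0.01, against 0.0026 over all genes tested, and 27 were higher and 29 lower in Wnt5a, beside 50.7% higher of all. None of these 56 differed by as much as 2-fold, and listed genes too low to be tested were not counted here.

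The remaining enzymes that build or cap matriglycan were all tested, 10 of 10, and 0 were called in limma, with 1 at an unadjusted p under 0.05. EdgeR and DESeq2 called 0. Their median log2 difference was -0.02 and their range ran from -0.40 to 0.12. The log2 difference farthest from 0 was that of Chst10, a sulfotransferase that caps the glycan, at 538 and 499 against 354 and 435 (-0.40; adjusted p = 0.154 in limma, 0.029 under the replicate block). The median of chromosome 1, which holds Chst10, was -0.17.

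Supply of the mannose donor was represented by 13 genes, all tested, with a median log2 difference of 0.0060. Limma, edgeR and DESeq2 each called 0, and 1 had an unadjusted p under 0.05. Dhdds, a subunit of the enzyme that makes the dolichol chain, had the highest read count averaged over both groups, at 1295 and 1218 against 1323 and 1202, values that overlap. Dpm3, the membrane tether of dolichol-phosphate-mannose synthase, was at 86.3 and 85.02 in empty cells against 109.0 and 109.2 in Wnt5a cells, which is 0.34 on the log2 scale (adjusted p = 0.193 in limma, 0.045 under the block). The 5 genes of other O-mannosylation routes, the Tmtc enzymes of cadherin O-mannosylation and Mgat5b of the brain branch, had a median of 0.02, and 0 were called by limma, edgeR or DESeq2 or at an unadjusted p under 0.05. Averaged over both groups Tmtc4 had the highest read count of these, at 991 and 988 against 936 and 936.

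Other subunits and cytoplasmic partners of the complex comprised 20 genes, of which 13 were tested. Limma, edgeR and DESeq2 each called 0 of them, 3 had an unadjusted p under 0.05, and the median was -0.05. The muscle sarcoglycans Sgca and Sgcd and the neuronal nitric oxide synthase Nos1 were under 3 in normalised read count in every library. Sgcz, a further sarcoglycan too low to be tested, had 2 and 0 reads in the empty against 15 and 12 in the Wnt5a libraries. Sgce, the epsilon-sarcoglycan found outside muscle, was at 188 and 209 against 254 and 243. Plec, the cytoskeletal linker plectin, had the highest read count averaged over both groups (not per length), at 1328 and 1235 against 1087 and 955. With the replicate block limma called 4 of the 13, beside 17.0% of all genes tested: Sgce (log2 difference 0.32; adjusted p = 0.176 without and 0.033 with the block), Plec (-0.33; 0.140 and 0.0059), and the ankyrins Ank2 (-0.46; 0.166 and 0.033) and Ank3 (-0.29; 0.613 and 0.035). Ank3 shared the library split described for Utrn. Sntg1 and Cav3 were not analysed here.

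Of 16 genes on the ligand list, which code for ligands of alpha-dystroglycan and for chains of laminin, 15 were listed and 10 tested. The median was -0.0076; limma and edgeR called 0, DESeq2 called 2, beside 4.35% of all genes, and 3 had an unadjusted p under 0.05, beside 16.1%. Lamc1, the laminin gamma-1 chain, was at 1140 and 974 against 790 and 793 (-0.41; adjusted p = 0.092 in limma, 0.0075 under the block). Slit1, an axon guidance protein, was at 79.7 and 114 against 168 and 140 (0.68; adjusted p = 0.145 in limma, 0.037 under the block). Lamc1 lies on chromosome 1 and Slit1 on chromosome 19, whose medians are shifted in the same directions. The DESeq2 calls were those of Lamc1 and Slit1. Lama2 stayed under 1 in every library, and Lama1 was not analysed here. Among other ligand genes too low to be tested, Slit2 had 3 and 6 reads in the empty against 23 and 16 in the Wnt5a libraries. Slit3 had 0 and 1 against 7 and 3, and Lamb1 went the other way, with 22 and 11 against 11 and 10.

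Among laminin receptors outside the complex Itgb1, the beta-1 integrin, had the highest read count averaged over both groups, at 5042 and 5016 in empty cells against 4983 and 4973 in Wnt5a cells, a log2 difference of -0.01 (SE 0.07). Its usual partners on laminin, Itga3 and Itga6, differed by 0.05 and -0.03. Of the 5 receptors tested limma and edgeR called 0 and DESeq2 1, with 1 at an unadjusted p under 0.05, and their median was -0.01. Bcam, a receptor for laminins with the alpha-5 chain, was at 1271 and 1174 against 958 and 889 (-0.40; adjusted p = 0.067 in limma, 0.0025 under the block), and it was the receptor that DESeq2 called. Over all 6 lists the block called 10 of 56 genes (17.9%), 3 higher and 7 lower, beside 17.0% of all genes tested, a share near the background. The genes named here for their value with the block were chosen after their values were seen.

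**Figure D3:**
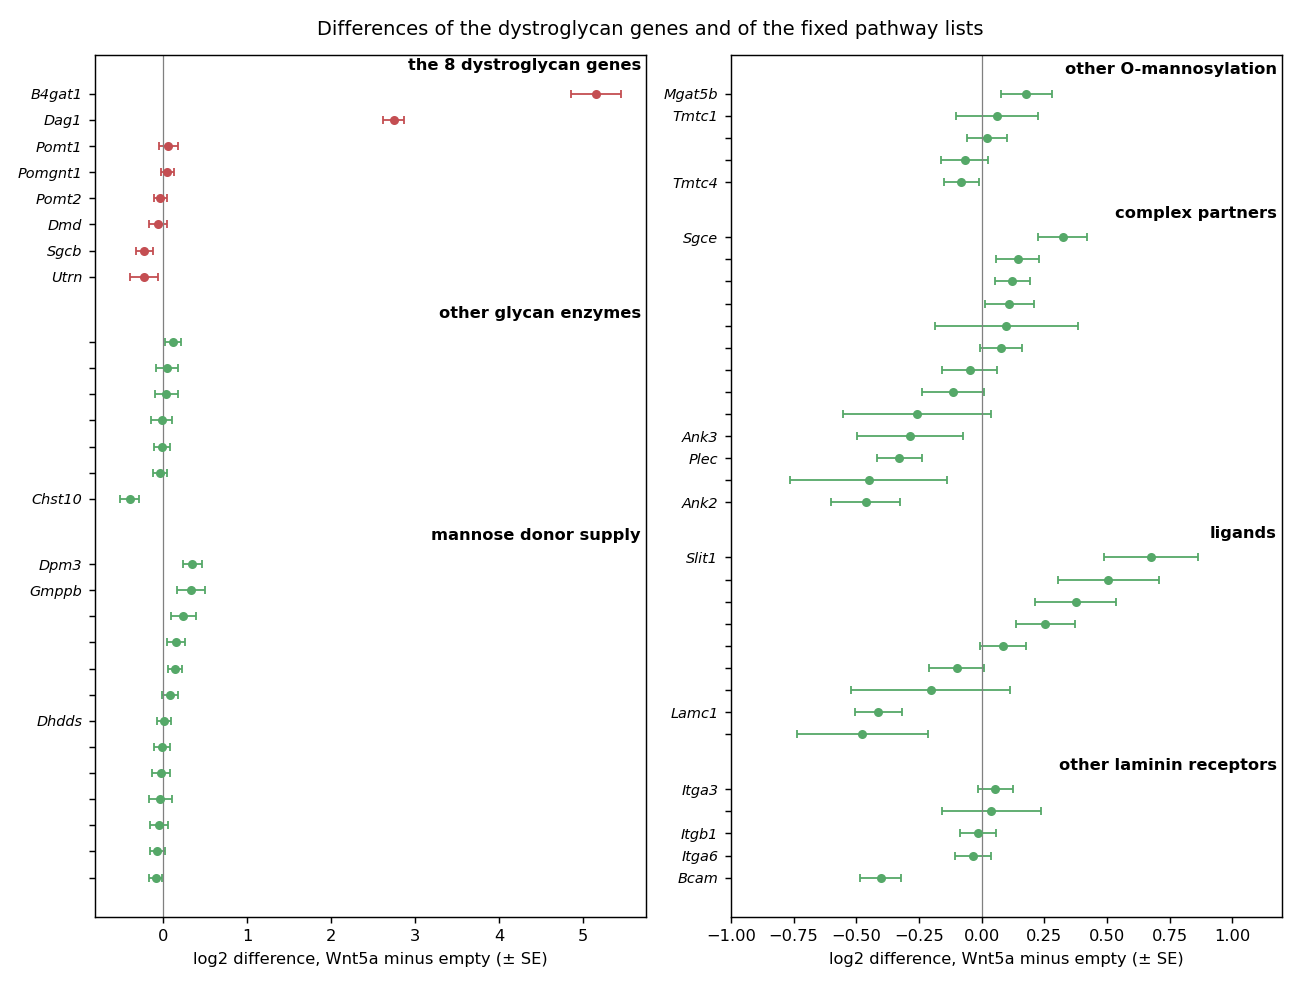
Log2 difference, Wnt5a minus empty, with its standard error (horizontal axes, with different ranges in the left and right panels), for the 8 genes in red and tested genes of 6 pathway lists in green (those described in the text are labelled). B4gat1 at 5.16 and Dag1 at 2.74 lie far from 0, the other 6 red points lie between -0.23 and 0.06, and all green points lie between -0.48 and 0.68.

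Dag1 and B4gat1 each stood beside other genes with few reads in empty cells. In RefSeq gene order the 6 listed genes on one side of Dag1 were Gmppb, Rnf123, Amigo3, Mst1, Apeh and Bsn. Mst1 was near 0 in all libraries, and the other 5 had log2 differences of 0.13 to 0.72. Limma called none of these 5, and with the block it called Rnf123 (adjusted p = 0.0079), Amigo3 (0.038) and Apeh (0.012). Bsn, next to Dag1, was at 647 and 593 in empty cells against 690 and 663 in Wnt5a cells. On the other side stood Nicn1, Amt, Tcta, Rhoa, Gpx1 and Usp4, none of which exceeded 4.69 in an empty library. Nicn1, next to Dag1, was at 1.10 and 0.254 against 60.8 and 57.4, and Rhoa at 4.69 and 0.761 against 513 and 507. On the first side the empty level of the 5 genes was 60.3% to 91.7% of the Wnt5a level, on the other side empty cells had almost no reads, and the 14.7% of Dag1 lay between these.

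The low stretch ran over 12 listed genes, 8 of them tested, from Dag1 to Lamb2. Lamb2 codes for the beta-2 chain of laminin, a matrix protein that dystroglycan binds. It had 3 and 1 reads in the empty against 42 and 13 reads in the Wnt5a libraries. The ratio was 12.3 per sequenced read (95% counting interval 4.53 to 46.6). Gmppb, which makes the GDP-mannose donor, is the sixth listed gene on the other side of Dag1, outside the stretch, at 72.2 and 85.1 against 87.1 and 112. Of the 20 tested genes before the stretch 12 were higher in Wnt5a, beside 50.7% of all genes, with a median log2 difference of 0.02 and a range of -0.41 to 0.72. Of the 20 after it 13 were higher, with a median of 0.18 and a range of -0.13 to 0.67, and limma called 2 of these, Qars and Impdh2, beside 2.06% of all genes. With the block, which called 17.0% of all genes, 5 before and 9 after the stretch were called.

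Around B4gat1 the gene next before it, Slc29a2, had 0 reads in both empty libraries and 7.29 and 7.73 in the Wnt5a libraries. Beyond it Npas4, Mrpl11, Peli3, Dpp3 and Bbs1 had reads in all libraries, with log2 differences of -0.50 to -0.32. Limma called none of these 5, and with the block it called Bbs1 (adjusted p = 0.0018), Dpp3 (0.0059), Mrpl11 (0.013) and Peli3 (0.016). On the other side Brms1 had 0 reads in both empty libraries against 34.3 and 27.9, and Tmem151a, Yif1a and Cnih2 were under 1 in the empty libraries against 5.87 to 68.9. Rin1 and Cd248 were low in all libraries, and Rin1, at 1.93 and 2.04 against 2.35 and 1.17, was not lower in empty cells. This stretch ran over 11 listed genes, 7 of them tested, from Slc29a2 to Pacs1. Of the 20 tested genes before it, 0 were higher in Wnt5a, beside 50.7% of all genes (median -0.33, range -0.69 to -0.11). Of the 20 after it 19 were higher (median 0.38, range -0.02 to 0.62), and limma called 2 of these, Eif1ad and Sart1, beside 2.06% of all genes. The median of all tested genes on chromosome 19 was 0.36, near the median after the stretch and unlike the one before it. With the block 14 before and 12 after the stretch were called, beside 17.0% of all genes. The ends of both stretches and the 20 genes beside them were set after the values were seen.

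The other 6 genes had no such neighbours among the 24 tested genes nearest to them, 2 on each side, whose log2 differences lay between -0.34 and 0.70. That search was narrower than the one around Dag1 and B4gat1, which took 6 listed genes on each side, tested or not. Neighbours of the other 6 genes that were too low to be tested would have been missed. No DNA was measured, and the part of genomic position in the differences of Dag1 and B4gat1 was not tested.

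**Figure D4:**
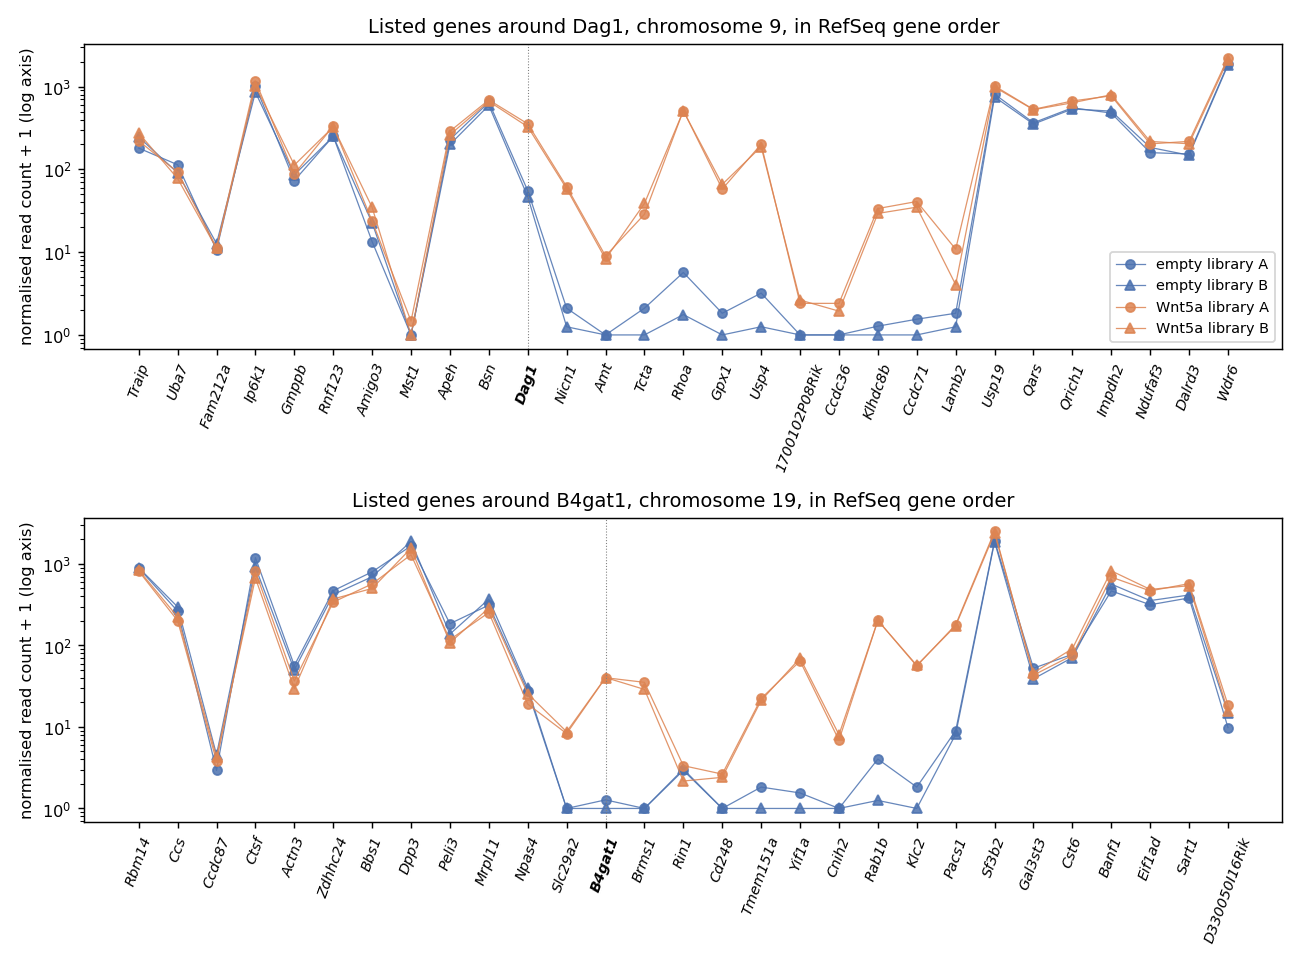
Normalised read count + 1 (vertical log axes) of listed genes in RefSeq gene order around Dag1 on chromosome 9 and B4gat1 on chromosome 19, with empty libraries in blue, Wnt5a libraries in orange, circles for library A, triangles for library B and dotted lines at both genes. The blue points drop to at most 4.69 on one side of Dag1, from Nicn1 to Lamb2, and to at most 7.99 on both sides of B4gat1, from Slc29a2 to Pacs1, where Rin1 is low in all 4 libraries; Dag1 itself lies partway.

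Among the genes with the profile most like Dag1 over the 4 libraries, by Euclidean distance of centred log2 values, were Med12l (0.12), Sgip1 (0.19), Tro (0.29) and Smarca2 (0.33). Med12l, which codes for a Mediator subunit, was at 15.2 and 11.97 in the empty against 108 and 99.6 in the Wnt5a libraries. Smarca2, an ATPase of SWI/SNF chromatin remodelling, was at 18.2 and 19.9 against 165 and 128. None of these 4 lies on chromosome 9. For B4gat1 the nearest were Chrdl1 (0.26), Nicn1 (0.29), Gabra4 (0.31), Sgpp2 (0.34) and Ccdc71 (0.35). Nicn1 and Ccdc71 belong to the low stretch beside Dag1. Gabra4, a GABA-A receptor subunit, was at 1.38 and 0.511 against 55.7 and 60.0. With 4 libraries these distances reflect mostly the size of the group difference.

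Dystroglycan is abundant in muscle, glia and epithelia, so markers of other cells were read beside these genes. All 7 neuroendocrine markers were present, with summed values of 50474 to 51633 in empty cells against 47176 to 50026 in Wnt5a cells. Skeletal muscle markers summed to 96.5 to 99.3 in empty cells against 97.4 to 105 in Wnt5a cells over the 5 of 7 that were listed, most of it Myh3, an embryonic myosin, while Myod1, Ckm and Acta1 were under 3 everywhere. Schwann cell and glial markers summed to 16.04 to 17.1 against 18.8 to 19.9, and those of lung epithelium to 44.4 to 47.9 against 42.5 to 42.7. Endothelial markers summed to 3.05 to 4.41 against about 2.58, and leukocyte markers to 9.37 to 12.7 against 10.1 to 11.5. The fibroblast sum was 353 to 604 in empty cells against 244 to 248 in Wnt5a cells, almost all of it Dcn (adjusted p = 0.131 in limma, 0.014 with the block), with Col1a1 and Col1a2 near 0. It was thus higher where Dag1 and B4gat1 were lower, and its part in their difference was not tested.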

How the data were processed

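RNA was sequenced from 16 samples in 2 groups of 8. Per the submitters' processing notes, TopHat, Bowtie, HTSeq and DESeq2 were used; their roles, the genome build, the annotation and the use of strand are not given in the sources used here, so overlapping and antisense genes carry added uncertainty. Each deposited table gives 1 normalised signal value per gene. In every sample 100% of these deposited signal values were whole multiples (tolerance 0.01) of 1 step, between 0.934 and 1.11, so whole reads were recovered. Samples whose reads agree within an index of dispersion of 1.5 were averaged to 1 library: 24 pairs had an index of 0.987 to 1.05 (14 of them still with a chi-square p under 0.05) and the other 32 pairs within a group 5.23 to 5.44. Library totals were 30220749 and 32592342 reads (empty A and B) and 35102931 and 35315408 reads (Wnt5a A and B). No columns were left unused.

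Genes with a mean value of at least 10 (12357 genes) entered limma 3.58.1 under R 4.3.3, as log2(value + 1) of the library means, fitted by lmFit and eBayes with trend. P-values were adjusted over all of them by Benjamini and Hochberg, with calls under 0.05. The log2 scale with its pseudocount understates the change of low genes. Same-numbered samples of the groups deviated together (Pearson r of 0.175 to 0.220 in 8 of 8 pairs, across genes, which are not independent replicates). These 8 values mostly repeat 1 contrast, library A minus B, whose differences in the 2 groups had a Pearson r of 0.44. Only 1 of the 8 empty samples matched its own number best, so the numbers do not pair single samples. Library A or B served as the replicate block, on an assumed pairing of the libraries. The fit with this block stands beside the results whose call it changes. edgeR 4.0.16 and DESeq2 1.42.0 were run on the recovered reads. The scripts were tested on simulated data. Gene order came from RefSeq GRCm38.p6 (17610 symbols matched, 373 through a synonym) and transcript lengths from GENCODE M21. The genome build of the deposited values is not given, so coordinates stand only for the windows before Dag1 and B4gat1, on GRCm38.p6. Intervals are exact and cover counting error only.

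The 8 genes and the 6 lists were chosen with earlier results of these data known. Named were the 8 genes, from each list the genes past the threshold and the gene with the highest mean, the 6 nearest listed genes on each side of Dag1 and B4gat1 and the 2 nearest tested genes on each side of the others (given as a range), and the 5 genes most like Dag1 and B4gat1 over the libraries. Some genes that this rule names are counted but not reported here, and they are left out of the plots. Alternatives were other pseudocounts, filters and scalings, eBayes without trend, all 16 samples separately, the block, omission of each library, edgeR and DESeq2.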

Additional observations from a re-analysis of the deposited data

Results flagged for a closer look

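Each of the 8 genes was checked in both groups for a sample far from the other 7 of its group, 16 combinations in all, of which chance flags about 1 in 20. In B4gat1 the highest empty sample stood apart at a normalised read count of 1.10, since it held the 1 read of the group and the other 7 samples held 0. In Pomt2 the highest empty sample was at 532, apart from the other 7 empty samples. Both are the values of deposited samples that were averaged into a library of 4.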

How the results depend on the processing

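Alternatives are given for the number of genes called, the list counts and the differences of Dag1 and B4gat1. Against 254 genes called in all (171 higher, 83 lower), no filter gave 146, a minimum of 50 gave 102, eBayes without trend 158, all 16 samples separately 4377, the replicate block 2095 (1073 higher, 1022 lower) and DESeq2 538; omission of one library gave 138 to 1098. Counting deposited samples of 1 library as replicates narrows the spread by construction; for the other settings the cause was not tested. Of the list genes, 0 were called in each of the 6 lists. All 16 samples separately called 4377 of all 12357 genes tested. In the lists that setting gave 4 of 10 matriglycan enzymes, 3 of 13 genes of mannose donor supply and 2 of 5 of other O-mannosylation. It also gave 5 of 13 complex partners, 6 of 10 ligands and 1 of 5 laminin receptors. The replicate block gave 1, 1, 0, 4, 3 and 1 in the same order, beside 17.0% of all genes tested. DESeq2 gave 2 ligands and 1 laminin receptor, beside 4.35% of all. Omission of one library gave 0 to 1 matriglycan enzymes, 0 to 3 complex partners, 0 to 3 ligands and 0 to 1 laminin receptors, every call coming without empty library B. Other calls that the block changed stand in the text beside their genes.

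Dag1, at 2.74, moved to 2.55 with a pseudocount of 10 and at 2.62 to 2.86 on omission of one library. B4gat1, at 5.16, was at 7.67 and 2.28 with pseudocounts of 0.1 and 10, 4.05 after quantile normalization, 7.91 in edgeR, 8.21 in DESeq2, and 4.80 with chromosome medians removed, an alternative chosen after seeing the data; leaving out one library gave 4.98 to 5.33. A minimum of 50 removes B4gat1, so that setting has no value. Its size rests on 1 read in empty cells, and depth sets its limit. The other 6 genes moved by less than 1 SD between libraries under all 16 alternatives, Utrn over the widest range (-0.47 to 0.02). For many of these settings that outcome was fixed in advance. With 2 libraries per group, omission of one cannot move a difference by more than this SD. The filters, eBayes without trend and the block leave the differences of these genes unchanged.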
